A study of Mus musculus with 22 samples.

Results

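Simple epithelial keratins and 2 cell adhesion genes were followed in primordial germ cells (PGCs) of the mouse embryo, which later form the gametes, with and without a working Tet1 gene. The set was given by symbol as 4 keratins (Krt7, Krt8, Krt18 and Krt19) and 2 adhesion genes (Epcam and Cdh1). These 6 genes were among 37991 genes in the count table of the Tet1 cross and among 37620 in that of a second cross, and all 6 passed the filter on low counts that left 17567 genes for testing. The Tet1 enzyme acts on DNA, where it converts methylated cytosines to oxidised forms.

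The Tet1 cross gave 20 libraries in 10 groups of 2. Embryos came from matings of parents that were both Tet1-het and carried GOF18∆PE-EGFP, a Pou5f1 reporter that marks germ cells, so Tet1-KO and Tet1-WT embryos shared the reporter background. Tet1-WT and Tet1-KO were each sampled at E10.5 with the sexes together, and as female and male at E12.5 and E14.5. A library of this cross pooled RNA of sorted PGCs from 2 to 6 embryos of 1 genotype, stage and sex, equivalent to 1000 to 8000 cells, so the 2 libraries of a group are 2 pools. The other 2 libraries were wild-type E10.5 PGCs from MF1 females mated with GOF18∆PE-EGFP males, made from 600 to 1000 cells each. All 22 libraries were polyA RNA amplified as cDNA for 15 cycles. The sorting gate and the nature of the Tet1 allele are not given in the sources used here.

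Total counts per library ran from 9616436 to 25899505 in the Tet1 cross and were 59415040 and 66924911 in the MF1 cross. All 12 germ cell markers on the list used were above 0 in every library. Tet1 itself was lower in both Tet1-KO libraries than in both Tet1-WT libraries in each sex at E12.5 and E14.5. At E10.5 the genotypes overlapped: the libraries labelled Tet1-WT held 134 and 76.8 CPM (counts scaled to the library total, as explained with the levels below), those labelled Tet1-KO 44.5 and 102. The group means, 105 and 73.2 CPM, were in the order of the labels, but 1 library labelled Tet1-KO was above 1 labelled Tet1-WT. "Labelled" is therefore used for genotypes at E10.5 and for averages that include that stage.

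Keratins build the intermediate filaments of epithelial cells, and a filament needs a type I partner (Krt18, Krt19) and a type II partner (Krt7, Krt8). Krt8 and Krt18 are the first pair made in the embryo and mark simple epithelia, while Krt7 and Krt19 are found in ducts and other lining epithelia. Cdh1 encodes E-cadherin, which joins neighbouring cells at adherens junctions, and Epcam encodes an epithelial adhesion protein. Germ cells make both adhesion proteins while they migrate and colonise the gonad, whereas keratins are better known from the epithelia that surround them.

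The 3 clustered keratin genes of chromosome 15 (Krt7, Krt8, Krt18) and Epcam on chromosome 17 had a promoter entry in RefSeq (GRCm38.p6), so the 250 bases before each start are shown for the genes whose levels moved together or apart below. Krt19 on chromosome 11 and Cdh1 on chromosome 8 are named only. Each line runs 5′ to 3′ on the gene's own strand, and capitals mark the E-box letters CAGGTG on either strand (read as CACCTG on the other strand), a sequence that Snail and ZEB repressors of Cdh1 are known to bind. The window of Krt7 is chr15:101412153-101412402 on the plus strand, that of Krt8 chr15:102004343-102004592 on the minus strand, that of Krt18 chr15:102027966-102028215 on the plus strand and that of Epcam chr17:87635729-87635978 on the plus strand.
Krt7: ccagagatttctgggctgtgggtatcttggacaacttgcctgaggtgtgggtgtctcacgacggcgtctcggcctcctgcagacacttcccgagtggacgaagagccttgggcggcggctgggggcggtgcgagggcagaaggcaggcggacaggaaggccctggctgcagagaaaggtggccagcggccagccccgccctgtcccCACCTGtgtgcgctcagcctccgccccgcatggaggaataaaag
Krt8: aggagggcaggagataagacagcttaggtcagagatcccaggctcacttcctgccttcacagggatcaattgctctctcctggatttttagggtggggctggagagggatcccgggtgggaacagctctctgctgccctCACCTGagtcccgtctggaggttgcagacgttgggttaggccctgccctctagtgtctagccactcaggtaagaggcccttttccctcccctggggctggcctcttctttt
Krt18: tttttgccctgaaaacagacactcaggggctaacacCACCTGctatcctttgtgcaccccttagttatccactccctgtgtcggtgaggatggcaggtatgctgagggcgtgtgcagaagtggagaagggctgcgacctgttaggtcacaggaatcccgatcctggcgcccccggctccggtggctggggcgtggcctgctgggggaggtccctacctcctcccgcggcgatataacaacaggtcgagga
Epcam: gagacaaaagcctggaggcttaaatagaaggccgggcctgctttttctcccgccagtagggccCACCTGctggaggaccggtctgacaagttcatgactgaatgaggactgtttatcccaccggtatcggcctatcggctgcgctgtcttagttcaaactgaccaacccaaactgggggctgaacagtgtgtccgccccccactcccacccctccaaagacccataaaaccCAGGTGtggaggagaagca

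All 4 windows held the letters CAGGTG, against 17.2% of 32851 promoters of the same length in that table. They began 44 bases before the start in Krt7, 111 in Krt8, 214 in Krt18, and 187 and 19 in Epcam. The letters GCCNNNGGC, a core that AP-2 factors such as Tfap2c are known to bind, stood in the windows of Krt7 (146 and 70 bases before the start) and Krt18 (83 bases), against 13.7% of promoters. TATAAA stood in none of the 4 windows and in 12.4% of promoters. Both strands were searched, and no match of 1 motif overlapped a match of another. These matches describe letters only, and no binding or methylation was measured in these libraries.

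Levels below are in CPM, counts over the library total scaled by the TMM method. Ratios between groups are on the log2 scale, each with a standard error (SE), and come from edgeR's quasi-likelihood test. A gene was called where its p, adjusted by Benjamini-Hochberg over all genes tested, was under 0.05. Counts of list and marker genes that rose or fell are counts of called genes. The p-values measure the spread between pooled libraries. Where libraries of different groups are said not to overlap, the share of all genes that did so was not counted. In bulk RNA, fewer cells of a type and less RNA per cell cannot be told apart.

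Within the Tet1 cross, Krt8 and Krt18 were highest at E10.5 and lower from E12.5 on. The MF1 libraries of E10.5, described further on, did not share that level. Krt8, the type II partner, was at 45.9 and 24.0 CPM in the E10.5 libraries labelled Tet1-WT and at 33.8 and 33.1 CPM in those labelled Tet1-KO. At E12.5 Krt8 was at 4.48 and 6.52 CPM in female Tet1-WT, 4.10 and 2.40 in female Tet1-KO, 7.62 and 4.51 in male Tet1-WT, and 2.78 and 3.14 in male Tet1-KO. At E14.5 it was at 7.37 and 2.44 CPM in male Tet1-WT, 2.71 and 4.01 in male Tet1-KO, 1.16 and 1.38 in female Tet1-WT, and 0.264 and 0.000 in female Tet1-KO. All 4 E10.5 libraries of this cross therefore lay above all 16 later ones, and the 4 female libraries at E14.5 lay below all others. Female Tet1-KO held 4 counts in library a and 0 in library b, and a count of 0 there allows up to 0.146 CPM (3 counts, counting error only).

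Krt18, the type I partner of Krt8, was detected in every library. It was at 128 and 72.2 CPM in the E10.5 libraries labelled Tet1-WT and at 42.5 and 95.3 in those labelled Tet1-KO. At E12.5 Krt18 was at 33.8 and 19.8 CPM in female Tet1-WT, 21 and 23.7 in female Tet1-KO, 29.0 and 19.9 in male Tet1-WT, and 18.2 and 12.4 in male Tet1-KO. At E14.5 it was at 5.99 and 18.4 CPM in female Tet1-WT, 21 and 27.4 in female Tet1-KO, 9.86 and 6.95 in male Tet1-WT, and 13.7 and 11.7 in male Tet1-KO. The E10.5 libraries of the cross again lay above the other 16, but at E14.5 the female Tet1-KO libraries, lowest for Krt8, were the highest for Krt18.

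Krt19, a type I keratin of lining epithelia, differed most between pools of the same group. The E10.5 libraries labelled Tet1-WT held 38.8 and 20.9 CPM, whereas those labelled Tet1-KO held 0.206 and 26.2. At E12.5 Krt19 was at 17.1 and 7.65 CPM in male Tet1-WT, 3.37 and 0.0667 in male Tet1-KO, 5.71 and 0.894 in female Tet1-WT, and 0.497 and 0.564 in female Tet1-KO. At E14.5 all 8 libraries were at or below 2.06 CPM, and 1 male Tet1-WT and 1 female Tet1-KO library held no read, which allows up to 0.174 and 0.146 CPM. Both Tet1-KO libraries were below both Tet1-WT libraries in each sex at E12.5, and at no stage was the difference called.

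Krt7, a type II keratin of ducts, never passed 9.09 CPM in any library. It was at 5.48 and 3.47 CPM in female and 8.77 and 7.33 in male Tet1-WT at E12.5, against 2.61 and 2.19 in female and 1.94 and 2.73 in male Tet1-KO. The other libraries of the Tet1 cross ran from 0.040 to 4.35 CPM. Krt7 was called in none of the 23 planned comparisons with edgeR. As with Krt19, the Tet1-WT pools of E12.5 lay above the Tet1-KO pools of the same sex without overlap.

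Epcam stayed between 16.6 and 100 CPM in all 22 libraries. It was at 22.5 and 16.6 CPM in the E10.5 libraries labelled Tet1-WT and at 63.2 and 42.4 in those labelled Tet1-KO. At E12.5 Epcam was at 57.7 and 70.5 CPM in female Tet1-WT, 49.4 and 45.6 in female Tet1-KO, 61.0 and 68.9 in male Tet1-WT, and 61.8 and 69 in male Tet1-KO. At E14.5 both female Tet1-WT libraries were at 18.9 CPM and the female Tet1-KO libraries at 27.2 and 30.6, while male Tet1-WT held 100 and 57.6 and male Tet1-KO 73.5 and 52.6. Every E14.5 male library was above every E14.5 female library.

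Cdh1 had the widest range of the adhesion pair, from 5.39 to 380 CPM. It was at 29.2 and 20.4 CPM in the E10.5 libraries labelled Tet1-WT and at 74.2 and 116 in those labelled Tet1-KO. At E12.5 Cdh1 was at 74.9 and 55.1 CPM in female Tet1-WT, 120 and 187 in female Tet1-KO, 95.7 and 151 in male Tet1-WT, and 93.7 and 98.2 in male Tet1-KO. At E14.5 it was at 5.39 and 16.6 CPM in female Tet1-WT, 33.1 and 100 in female Tet1-KO, 154 and 151 in male Tet1-WT, and 326 and 380 in male Tet1-KO. Tet1-KO libraries were above Tet1-WT libraries without overlap in 4 of the 5 stage and sex groups, all except E12.5 males.

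**Figure D1:**
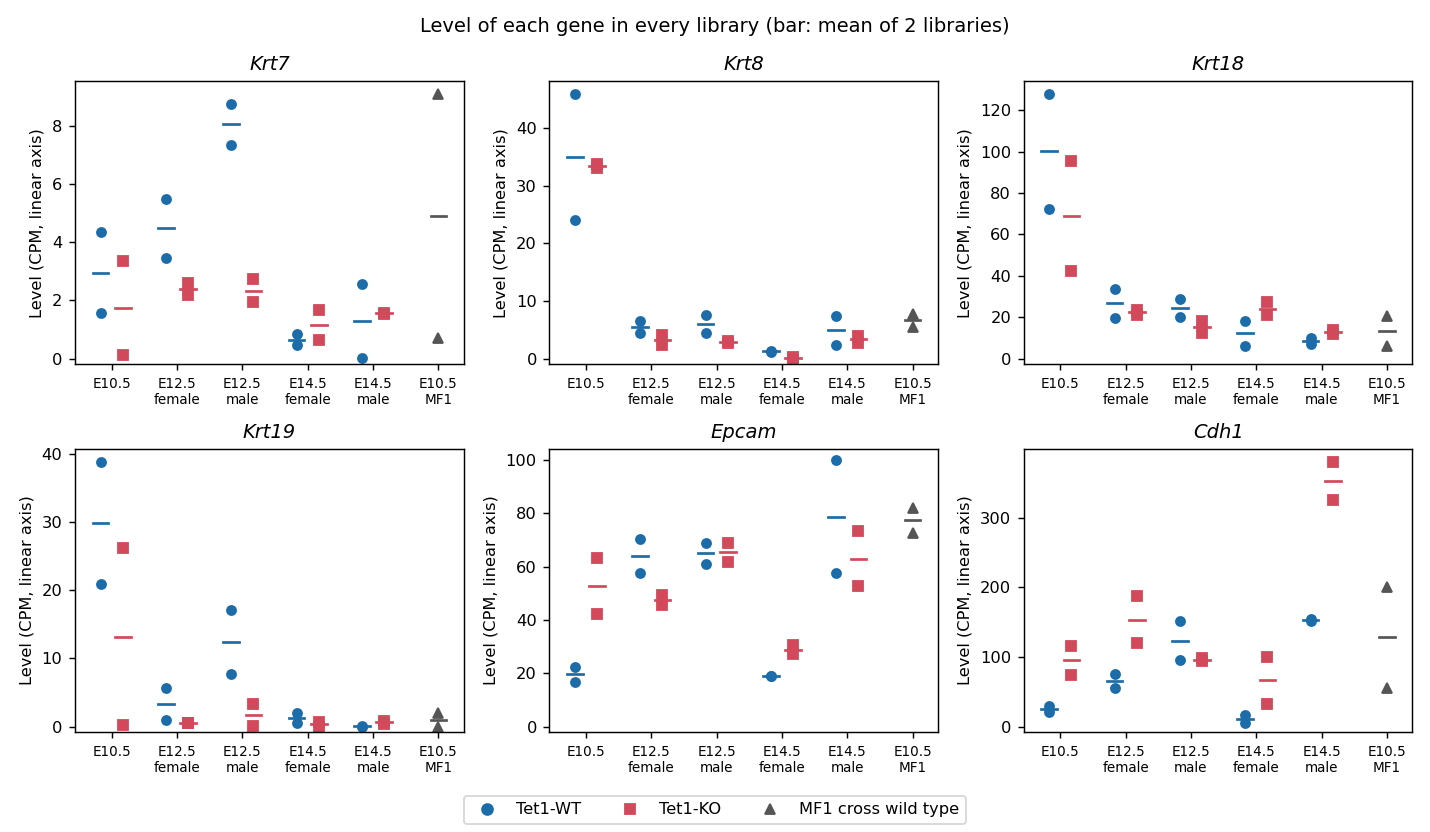
Level of each gene in every library in CPM on a linear axis, by stage and sex, with Tet1-WT as circles, Tet1-KO as squares, the MF1 cross as triangles and a bar at the mean of the 2 libraries. Within the Tet1 cross Krt8 and Krt18 peak at E10.5, where the MF1 libraries are low (Krt8 at 7.75 and 5.55 CPM), Epcam and Cdh1 separate the sexes at E14.5, and Cdh1 in male Tet1-KO reaches 326 and 380 CPM.

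Ordered by group mean, neighbouring groups mostly overlapped: of 10 steps down the 11 groups, 10 overlapped for Krt7, 9 for Krt19, 8 for Krt18, and 7 each for Krt8, Epcam and Cdh1. Krt8 separated the 2 E10.5 groups of the Tet1 cross from the rest, and then the E14.5 female groups from each other and from those above. Cdh1 separated E14.5 male Tet1-KO at the top, with a mean of 353 ± 38.2 CPM (SD, n = 2), from E12.5 female Tet1-KO at 154 ± 47.7 CPM. At the low end of Cdh1 stood E14.5 female Tet1-WT, at 11 ± 7.96 CPM. The MF1 libraries in this order come from another table, scaled together with the E10.5 Tet1-WT libraries only.

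From E10.5 to E12.5, which spans arrival of germ cells in the gonad, the Krt8 and Krt18 pair fell and Epcam rose among Tet1-WT libraries of both sexes. In females, 3 of 6 genes were called, against 13.6% of all genes. Krt8 fell by 2.67 (SE 0.67, adjusted p = 0.0151), Krt18 fell by 1.90 (SE 0.49, adjusted p = 0.0171) and Epcam rose by 1.71 (SE 0.28, adjusted p = 0.000829). Cdh1 was 1.39 higher with an adjusted p of 0.0693 and was not called.

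In males, 4 of 6 genes were called from E10.5 to E12.5, against 9.45% of all genes. Krt8 fell by 2.52 (SE 0.67, adjusted p = 0.0254) and Krt18 fell by 2.03 (SE 0.49, adjusted p = 0.016). Epcam rose by 1.73 (SE 0.28, adjusted p = 0.00111) and Cdh1 by 2.31 (SE 0.49, adjusted p = 0.00772). Both comparisons share the E10.5 libraries labelled Tet1-WT, whose germ cell markers summed to 1820 and 1390 CPM, against 4860 to 6800 CPM in the 4 Tet1-WT libraries of E12.5. The genes of that list moved unequally. Dazl was at 4.58 and 18.9 CPM at E10.5 and at 1050 to 2070 at E12.5, and Dppa3 at 844 and 732 against 2260 to 3540. Ifitm3 overlapped, at 435 and 232 against 256 to 409 CPM. Mesenchyme markers, a list of 15 genes, summed to 2070 and 2520 CPM in the same E10.5 libraries, against 989 to 2230 CPM at E12.5. The part of that difference in the Krt8, Krt18, Epcam and Cdh1 results was not tested.

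The Epcam rise was called in every fit that left out 1 library. Without E10.5 Tet1-WT replicate 1, the adjusted p for Krt8 was 0.118 in females and 0.173 in males, and that for Krt18 0.137 and 0.126. In females, Krt8 was also lost without E12.5 replicate 1 (0.0986) or 2 (0.0668), and Krt18 without replicate 2 (0.153). In males, Krt8 was also lost without E12.5 replicate 1 (0.0763) or 2 (0.235), Krt18 without replicate 1 (0.0529) or 2 (0.179), and Cdh1 without E10.5 replicate 2 (0.092) or E12.5 replicate 2 (0.0837).

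Among libraries labelled Tet1-KO, the keratin pair fell over the same interval and the adhesion genes were not called. In females 2 of 6 genes were called, against 10.4% of all genes: Krt8 fell by 3.35 (SE 0.69, adjusted p = 0.00595) and Krt18 fell by 1.63 (SE 0.49, adjusted p = 0.0444). In males the same 2 were called, against 9.09%: Krt8 fell by 3.50 (SE 0.70, adjusted p = 0.0058) and Krt18 fell by 2.17 (SE 0.50, adjusted p = 0.0131). Epcam in these groups ran from 42.4 to 63.2 CPM at E10.5 and from 45.6 to 69 at E12.5, which overlap. Mesenchyme markers went from 519 and 1080 CPM at E10.5 to 61.6 and 60.2 in females and 321 and 196 in males, with 9 and 4 of 15 called lower. Mesothelium markers went from 86.1 and 185 CPM to between 27.3 and 48.9. The part of these lists in the Krt8 and Krt18 results was not tested.

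Left-out libraries again bore on these calls. In females, Krt8 was lost without E12.5 Tet1-KO library b (0.0883), and Krt18 without E10.5 Tet1-KO replicate 2 (0.31) or E12.5 library a (0.204) or b (0.181). In males, Krt8 was lost without E12.5 library a (0.0639) or b (0.0594), and Krt18 without E10.5 replicate 2 (0.102) or E12.5 library a (0.0537) or b (0.122). Krt19 in females had a log2 ratio of -4.63 (adjusted p = 0.121), which was 1.33 without E10.5 Tet1-KO replicate 2, the library with 26.2 CPM.

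From E12.5 to E14.5, when female germ cells enter meiosis and male germ cells stop dividing, the adhesion genes fell in Tet1-WT females. There 3 of 6 genes were called, against 25.3% of all genes. Epcam fell by 1.76 (SE 0.28, adjusted p = 0.00026), Cdh1 fell by 2.61 (SE 0.51, adjusted p = 0.00144) and Krt8 fell by 2.12 (SE 0.70, adjusted p = 0.0352). Epcam and Cdh1 were called without any 1 of the 4 libraries. Krt8 was lost without E12.5 replicate 2 (0.15), or E14.5 replicate 1 (0.201) or 2 (0.116). Over the same interval mesenchyme markers went from 989 and 1370 to 54.1 and 44.4 CPM, with 12 of 15 called lower, and mesothelium markers from 86.9 and 106 to 12 and 9.96 CPM. Of 12 germ cell markers, 10 fell. The part of these lists in the Epcam, Cdh1 and Krt8 results was not tested.

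In Tet1-WT males only Krt19 was called over that interval, 1 of 6 genes against 12.7% of all genes. It went from 404 counts in the 2 E12.5 libraries to 3 counts in the 2 E14.5 libraries, 190-fold lower per read sequenced, with a 95% exact interval of 64.6 to 926 that covers counting error only. The adjusted p was 0.0376 in all libraries and between 0.0623 and 0.165 without any 1 of the 4, so each library carried the call. Mesenchyme markers went from 2230 and 1410 to 38.5 and 32.4 CPM in the same libraries, with 13 of 15 called lower, and mesothelium markers from 213 and 139 to 29.9 and 30 CPM, with 5 of 7 called lower. Their part in the Krt19 result was not tested. In these males Epcam overlapped between the stages, and Cdh1 was between 95.7 and 154 CPM in all 4 libraries.

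The sexes differed in that change. In Tet1-WT, Epcam changed by 2.04 more on the log2 scale in males than in females (SE 0.39, adjusted p = 0.00296), and Cdh1 by 2.91 more (SE 0.69, adjusted p = 0.0121). These were 2 of 6 genes, against 12.1% of all genes for that test. The Cdh1 difference was lost without E12.5 male replicate 1 (0.064) or E14.5 female replicate 1 (0.0685). The Epcam difference was called without any 1 of the 8 libraries.

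In Tet1-KO, 2 of 6 genes also differed between the sexes in their change, against 5.09% of all genes, but Epcam was not among them. Krt8 changed by 4.94 more in males (SE 1.11, adjusted p = 0.0186) and Cdh1 by 3.08 more (SE 0.67, adjusted p = 0.0164). Within Tet1-KO females Krt8 fell by 4.76 (SE 0.88, adjusted p = 0.00305), the only 1 of 6 called against 11% of all genes. It went from 133 counts in 2 libraries to 4, or 28.9-fold lower per read (95% exact interval 11 to 108, counting error only). Within Tet1-KO males Cdh1 rose by 1.88 (SE 0.48, adjusted p = 0.0223), 1 of 6 against 10.4%. Mesenchyme markers went from 61.6 and 60.2 to 23.3 and 30.2 CPM in these females and from 321 and 196 to 34.7 and 38.3 CPM in these males, and their part was not tested.

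The Krt8 fall in Tet1-KO females was called without any 1 of its 4 libraries. The Cdh1 rise in Tet1-KO males was lost without each of its 4 in turn (0.0568 to 0.146). The Krt8 difference between the sexes was lost without E12.5 female library a (0.0576), E12.5 male library a (0.0825) or b (0.0571), or E14.5 male library b (0.0697). The Cdh1 difference was lost without E12.5 female library b (0.0778), E12.5 male library a (0.0817) or b (0.0574), or E14.5 male library b (0.0622).

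**Figure D2:**
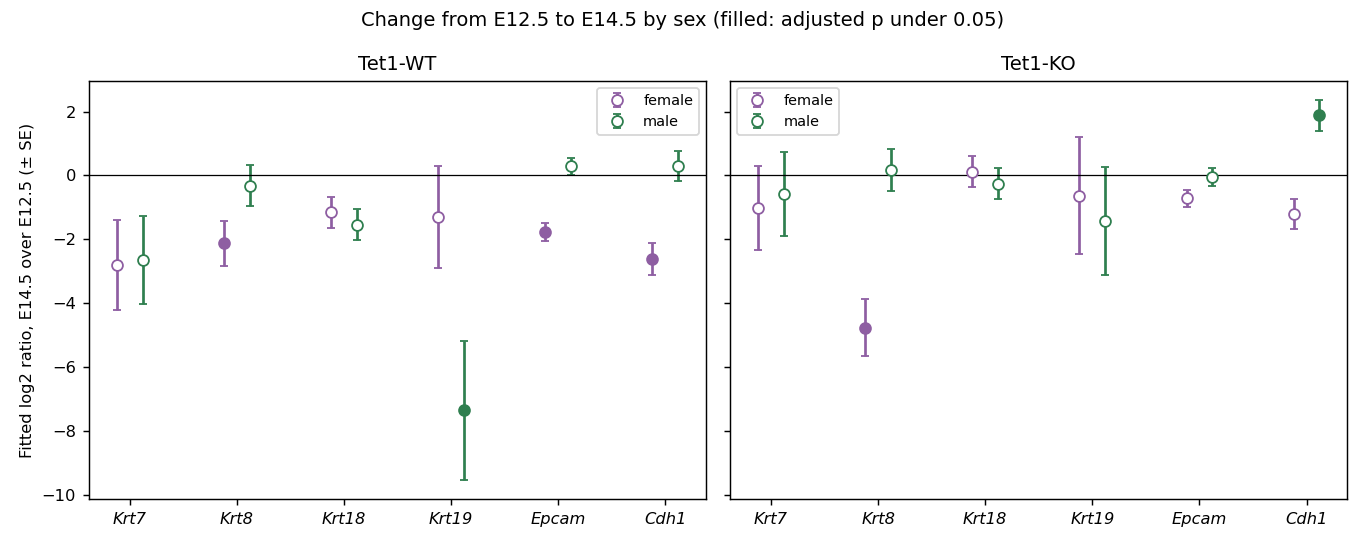
Fitted log2 ratio of E14.5 over E12.5 with its SE for each gene, in females and males, for Tet1-WT (left) and Tet1-KO (right), filled where the adjusted p was under 0.05. In Tet1-WT the points of Epcam (-1.76 in females) and Cdh1 (-2.61) separate by sex, and in Tet1-KO those of Krt8 (-4.76 in females) and Cdh1 (1.88 in males) do.

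At E12.5 the test passed for no member between the sexes. It called 0 of 6 genes in Tet1-WT, against 0.575% of all genes, and 0 of 6 in Tet1-KO, against 0.398%. No member had an unadjusted p under 0.05 in either, and DESeq2 also called 0. In Tet1-WT the male libraries were above the female ones without overlap for Krt7, Krt19 and Cdh1, and the share of all genes separated in this way was not counted. Without the filter on low counts Cdh1 was called in that comparison.

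At E14.5 the male libraries held more Krt8, Epcam and Cdh1 than the female ones in both genotypes. In Tet1-WT 3 of 6 genes were called, against 28.1% of all genes. Cdh1 was 3.84 higher in males (SE 0.54, adjusted p = 7.14e-05), Epcam 2.06 higher (SE 0.28, adjusted p = 6.06e-05) and Krt8 1.95 higher (SE 0.70, adjusted p = 0.0472). Krt8 was lost without E14.5 female replicate 1 (0.221) or 2 (0.133) or male replicate 1 (0.407), the last with a log2 ratio of 0.95.

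In Tet1-KO the same 3 genes were called at E14.5, against 19% of all genes. Cdh1 was 2.40 higher in males (SE 0.49, adjusted p = 0.00317), Epcam 1.12 higher (SE 0.27, adjusted p = 0.0097) and Krt8 4.80 higher (SE 0.89, adjusted p = 0.00156). For Krt8 the male libraries held 108 counts and the female libraries 4, a ratio per read of 27 (95% exact interval 10.3 to 101, counting error only). Cdh1 and Krt8 were called without any 1 of the 4 libraries. Epcam was lost without female library a (0.0694) or male library a (0.1).

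Germ cell markers summed to 10600 and 10700 CPM in E14.5 male Tet1-WT, and to 5740 and 5500 CPM in female Tet1-WT. In Tet1-KO the sums were 10600 and 10400 CPM in males and 5020 and 5310 in females. Genes of this list went both ways. In Tet1-WT, Dppa3 was at 5950 and 6290 CPM in males against 484 and 891 in females. Dazl was at 2300 and 2000 CPM in males against 3830 and 3140 in females. Other lists moved with sex as well. In Tet1-WT, mesonephric tubule and duct markers summed to 101 and 76.2 CPM in males against 16.4 and 15.9 in females, Sertoli and granulosa markers to 26.1 and 22.4 against 11 and 6.25, and steroidogenic markers to 15.3 and 15.1 against 3.57 and 2.01. The part of these lists in the Krt8, Epcam and Cdh1 results was not tested.

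Against Tet1-WT, the libraries labelled Tet1-KO held more of both adhesion genes at E10.5, and no keratin was called. There 2 of 6 genes were called, against 8.81% of all genes. Epcam was 1.43 higher (SE 0.28, adjusted p = 0.00667) and Cdh1 was 1.94 higher (SE 0.49, adjusted p = 0.0242), and for both genes the libraries of the 2 labels did not overlap. Epcam was lost without Tet1-WT replicate 2 (0.0741), and Cdh1 without Tet1-WT replicate 1 (0.0645) or 2 (0.167) or Tet1-KO replicate 2 (0.0774).

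Markers of other cells differed between the same libraries. Germ cell markers summed to 1820 and 1390 CPM in those labelled Tet1-WT and to 6160 and 3910 CPM in those labelled Tet1-KO. Of these markers, 9 of 12 were called higher in the latter, where 8.81% of all genes were called in either direction. Mesenchyme markers summed to 2070 and 2520 CPM against 519 and 1080 CPM, and 2 of 15 were called lower, Meis1 and Nr2f2. A gene that was not called could still be lower, as Col3a1 was, at 280 and 369 against 91.2 and 186 CPM. Mesothelium markers, 7 genes of the lining of the body cavity, summed to 370 and 262 CPM against 86.1 and 185 CPM, with Msln at 0 in all 4 libraries. Hindgut markers, 11 genes, summed to between 7.23 and 21.9 CPM over the 4 libraries, with 4 to 6 genes at 0 in each. Their part in the Epcam and Cdh1 results was not tested.

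At E12.5 the test called 0 of 6 genes between Tet1-KO and Tet1-WT in either sex, against 1.29% of all genes in females and 1.06% in males. The count with an unadjusted p under 0.05 was 1 in females and 0 in males, and DESeq2 called 0 in both. The gene in females was Cdh1, 1.24 higher in Tet1-KO (SE 0.47, adjusted p = 0.257). Of 15 mesenchyme markers, 9 were called lower in females and 7 in males. They summed to 989 and 1370 CPM in female Tet1-WT against 61.6 and 60.2 in female Tet1-KO, and to 2230 and 1410 against 321 and 196 in males. Mesothelium markers summed to 86.9 and 106 against 27.3 and 36.4 CPM in females and to 213 and 139 against 48.9 and 46.9 in males. Krt7 and Krt19 were lower in the same Tet1-KO libraries, and the part of those markers in that was not tested.

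At E14.5 in females, Tet1-KO held more Cdh1 and less Krt8 than Tet1-WT. These were 2 of 6 genes, against 6.65% of all genes. Cdh1 rose by 2.65 (SE 0.52, adjusted p = 0.00757). Krt8 fell by 3.38 (SE 0.91, adjusted p = 0.0367), from 36 counts in the 2 Tet1-WT libraries to 4 in the 2 Tet1-KO libraries, or 10.2-fold lower per read (95% exact interval 3.64 to 39.3, counting error only). Cdh1 was lost without Tet1-WT replicate 1 (0.125) or Tet1-KO library b (0.134). Krt8 was lost without Tet1-WT replicate 1 (0.165) or 2 (0.0999) or Tet1-KO library b (0.291).

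Marker lists of other cells differed in both directions in these 4 libraries. Mesenchyme markers summed to 54.1 and 44.4 CPM in Tet1-WT and to 23.3 and 30.2 in Tet1-KO, and mesothelium markers to 9.96 to 12 and 15.5 to 18.4 CPM. Hindgut markers summed to 7.25 and 8.48 CPM in Tet1-WT and to 18.9 and 17 in Tet1-KO. Surface ectoderm and trophoblast markers summed to 4.83 and 7.63 against 21 and 15 CPM, and endothelium markers to 58.3 and 73.8 against 119 and 212 CPM. Few genes carried these 3 rises. Pecam1 held 56.5 and 71.4 against 118 and 211 CPM of the endothelium sum, with Kdr at 0 in all 4 libraries. In the hindgut list Cdx2 went from 2.27 and 4.03 to 10.4 and 9.99 CPM. In the ectoderm list Hand1 went from 2.01 and 3.29 to 13.8 and 9.99 CPM, with Krt5 and Krt14 at 0. Germ cell markers summed to 5740 and 5500 CPM in Tet1-WT and to 5020 and 5310 in Tet1-KO. Of the 12, 8 were called higher in Tet1-KO, among them Pou5f1, Prdm1 and Tfap2c, where 6.65% of all genes were called in either direction. The part of these lists in the Cdh1 and Krt8 results was not tested.

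At E14.5 in males 0 of 6 genes were called, against 0.102% of all genes. Cdh1 alone had an unadjusted p under 0.05, at 1.21 higher in Tet1-KO (SE 0.47, adjusted p = 0.363), and DESeq2 called 0. Its 2 Tet1-KO libraries (326 and 380 CPM) were above both Tet1-WT libraries (154 and 151 CPM).

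Averaged with equal weight over the 5 stage and sex groups, libraries labelled Tet1-KO held more Cdh1 and less Krt8. These were 2 of 6 genes, against 13.9% of all genes. Cdh1 was 1.34 higher (SE 0.21, adjusted p = 0.000871) and was called without any 1 of the 20 libraries. Krt8 fell by 1.15 (SE 0.32, adjusted p = 0.0248) and was lost without E10.5 Tet1-WT replicate 1 (0.0579), E12.5 female Tet1-KO library b (0.054), E12.5 male Tet1-WT replicate 1 (0.0591) or E14.5 male Tet1-KO library a (0.0524). The log2 ratio of Epcam was 0.26 (adjusted p = 0.182), and -0.03 over E12.5 and E14.5 only. In the same average 10 of 12 germ cell markers were called higher and 11 of 15 mesenchyme markers were called lower. Their part in the Cdh1 and Krt8 results was not tested.

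**Figure D3:**
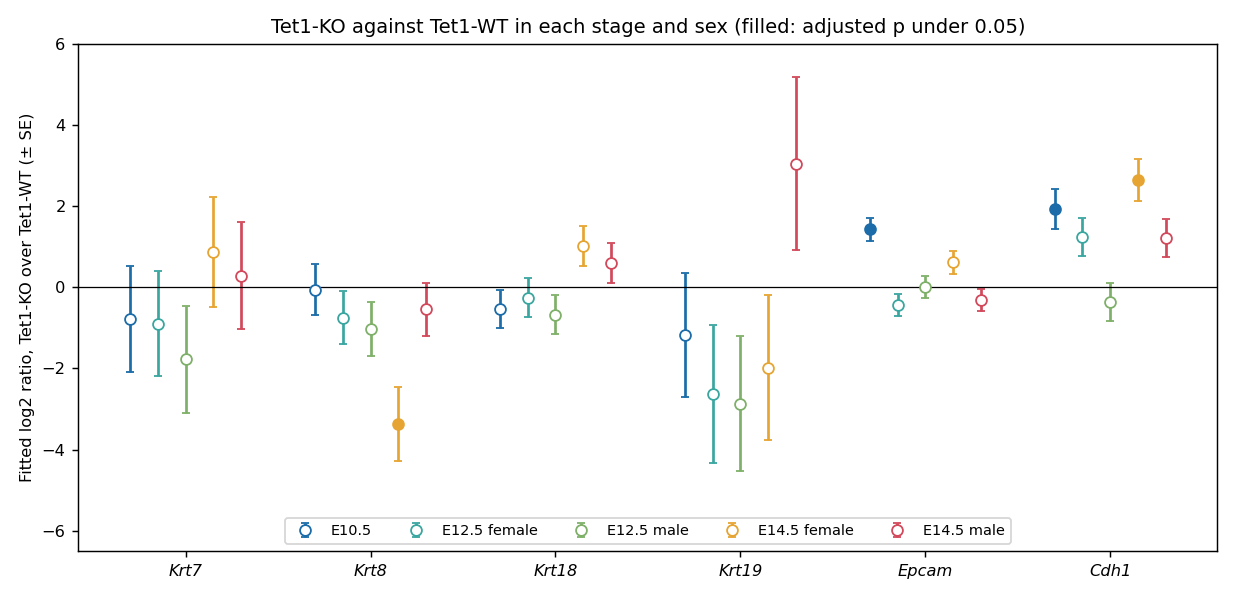
Fitted log2 ratio of Tet1-KO over Tet1-WT with its SE for each gene in the 5 stage and sex groups, filled where the adjusted p was under 0.05, with genotypes as labelled at E10.5. Filled points are Epcam (1.43) and Cdh1 (1.94) at E10.5 and Krt8 (-3.38) and Cdh1 (2.65) in E14.5 females, and the error bars of Krt7 and Krt19 are wide throughout.

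The difference between genotypes was not shown to depend on sex for any member. Set against each other, the male and female Tet1-KO effects gave 0 of 6 genes called at E12.5, against 0% of all genes, and 0 of 6 at E14.5, against 1.43%. With an unadjusted p under 0.05 there was 1 gene at E12.5 (Cdh1) and 2 at E14.5 (Krt8 and Epcam), and DESeq2 called 0 in both. Tests between stages, added after the data were seen, also called 0 of 6 with edgeR. The smallest p was that of Epcam, with a log2 difference of -1.86 between the Tet1-KO effect in E12.5 females and that at E10.5 (adjusted p = 0.0576), against 0.296% of all genes. The share of all genes was 0.239% for E12.5 males minus E10.5, 1.3% for E14.5 minus E12.5 in females and 0.803% in males. Unadjusted p-values under 0.05 were found for 1, 2, 2 and 2 genes in these 4 tests in that order, and DESeq2 called 1, 2, 0 and 0.

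The ratio of the keratin partners varied with stage and sex. Per length of the principal transcript (CPM per kb, 1958 bases for Krt8 and 1437 for Krt18), the level of Krt18 was 3.81 and 4.09 times that of Krt8 in the E10.5 libraries labelled Tet1-WT, and 1.71 and 3.92 times in those labelled Tet1-KO. At E12.5 the 8 libraries ran from 4.14 to 13.5 times. At E14.5 the male libraries ran from 1.82 to 6.93 times and the female Tet1-WT libraries were at 7.06 and 18.2 times. In E14.5 female Tet1-KO library a the ratio was 108, on 4 counts of Krt8, and in library b Krt8 was at 0 beside 27.4 CPM of Krt18. Krt18 was thus the more abundant partner per length in every library with both.

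**Figure D4:**
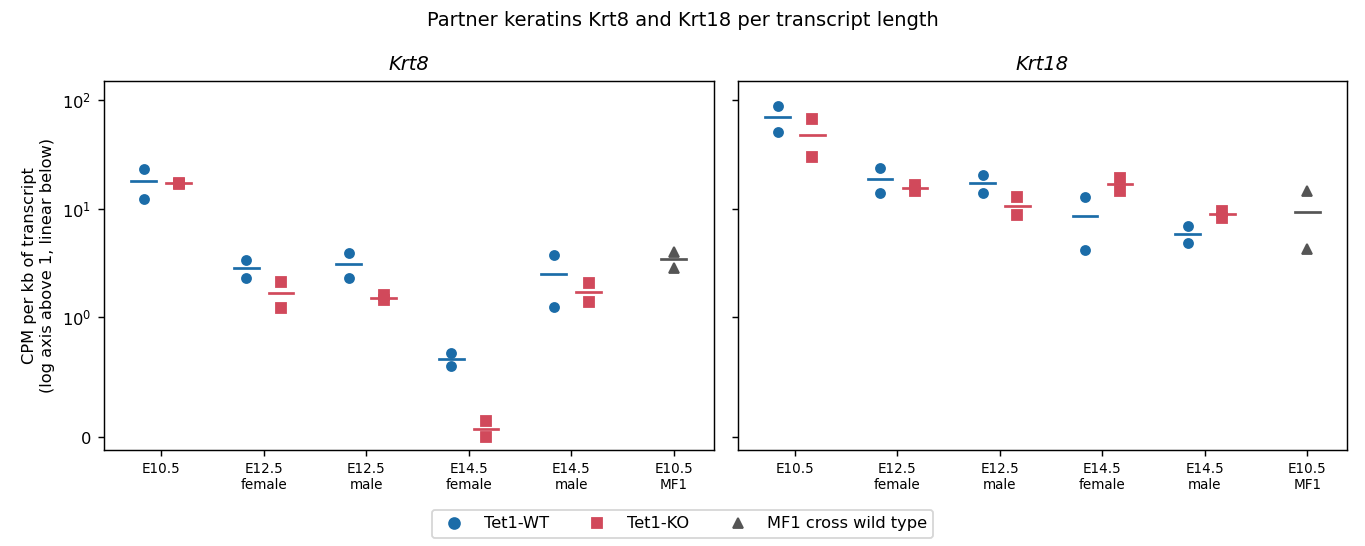
Krt8 (left) and Krt18 (right) in every library in CPM per kb of principal transcript, on an axis that is logarithmic above 1 and linear below, with a bar at the mean of 2 libraries. In E14.5 females, Krt8 drops toward 0 in Tet1-KO while Krt18 stays at the level of E12.5.

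The adhesion pair also shifted in proportion. Per length (2040 bases for Epcam, 4430 for Cdh1), the level of Cdh1 was 0.132 and 0.406 times that of Epcam in E14.5 female Tet1-WT and 0.562 and 1.51 times in female Tet1-KO. In E14.5 males it was 0.707 and 1.21 times in Tet1-WT and 2.04 and 3.32 times in Tet1-KO. In E12.5 females it was 0.597 and 0.359 times in Tet1-WT and 1.12 and 1.89 times in Tet1-KO. In these 3 groups both Tet1-KO libraries had the higher ratio, whereas in E12.5 males the ranges were 0.722 to 1.01 and 0.657 to 0.696 times. At E10.5 the ratios overlapped, at 0.599 and 0.565 times in libraries labelled Tet1-WT and 0.542 and 1.26 times in those labelled Tet1-KO.

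Across the 20 libraries of the Tet1 cross, Krt8, Krt18 and Krt19 correlated with one another, as did Epcam with Cdh1. On log2(CPM + 1), Pearson's r was 0.70 between Krt8 and Krt18, 0.73 between Krt18 and Krt19, 0.63 between Krt8 and Krt19, and 0.77 between Epcam and Cdh1. Between Krt8 and Cdh1 it was -0.02, and Krt7 reached 0.39 with Epcam and 0.24 to 0.26 with the other keratins. These values describe libraries that share stage, sex and genotype and are not independent of one another.

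Among 9612 genes with a mean of at least 5 CPM, those most like each member over the 20 libraries were taken by r. For Krt8 they were Lpar6 (0.93), Tns3, Myl6 and Myg1 (each 0.91), and for Krt18 they were Ldha (0.92), Nucks1 and Commd6 (each 0.90) and Lpar4 (0.89). For Krt19 they were Gli2 (0.96), Slitrk6 (0.91), Col11a1 and Tpm2 (each 0.90), and for Krt7 Fbln2 (0.82), Lhfpl2 (0.81), Gucy1a1 (0.80) and Scrn1 (0.78). For Epcam they were Fam3c and Rcan1 (each 0.90), Esrp1 and Anxa11 (each 0.89). For Cdh1 they were Pprc1 (0.96), Dnd1, Ddx56 and Ap3b2 (each 0.94), of which Dnd1 encodes an RNA-binding protein of germ cells.

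The MF1 cross gave a second look at wild-type E10.5 PGCs. Krt8 was at 7.75 and 5.55 CPM, Krt18 at 6.15 and 20.7, Krt19 at 1.99 and 0, and Krt7 at 0.698 and 9.09. Epcam was at 81.9 and 72.8 CPM and Cdh1 at 201 and 55.1. Against the E10.5 libraries labelled Tet1-WT, Krt8, Krt18 and Krt19 were lower and Epcam and Cdh1 higher in the MF1 libraries without overlap. The share of all genes separated in this way was not counted. In a separate fit of 4 libraries, edgeR called 0 of 6 genes, against 0.606% of all genes, while 4 had an unadjusted p under 0.05 and DESeq2 called 5.

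The log2 ratio of MF1 over Tet1-WT was -2.40 for Krt8 (SE 0.58, adjusted p = 0.127) and -2.91 for Krt18 (SE 0.71, adjusted p = 0.13). It was 1.97 for Epcam (SE 0.38, adjusted p = 0.0954) and 2.36 for Cdh1 (SE 0.69, adjusted p = 0.155). Mesenchyme markers summed to 68.5 and 75.2 CPM and mesothelium markers to 23.1 and 25.1 CPM in the MF1 libraries, against 2070 and 2520 CPM and 370 and 262 CPM in the E10.5 libraries labelled Tet1-WT. Cross, table and these markers move together here, so their parts cannot be told apart.

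Genes that work beside the members were taken as lists. Averaged over the 5 stage and sex groups, 5 of 15 tested tight junction and Epcam partners rose in libraries labelled Tet1-KO and none fell, with a list median of 0.63 beside -0.03 for all genes and 13.9% of all genes called. The shifts of germ cell and mesenchyme markers given above for this average apply to every list in it, and their part was not tested. Named calls of list genes were refitted for the genotype comparisons, for Tet1-WT females of E14.5 against E12.5, and for the sexes in E14.5 Tet1-WT. Of these 76 calls, 39 were lost in at least 1 fit without a library, and calls in other comparisons were not counted. F11r, a junctional adhesion molecule, rose by 0.88 (SE 0.12, adjusted p = 0.000309), the claudin Cldn7, which binds Epcam, by 0.97 (SE 0.21, adjusted p = 0.00616) and Cldn6 by 1.19 (SE 0.27, adjusted p = 0.00975). At E10.5 5 of the list rose (Cd9, Cldn6, Cldn7, F11r and Spint2) and Marveld2 fell, against 8.81% of all genes called. Marveld2 had reads in 1 of these libraries only, at 2.6 and 0 CPM in those labelled Tet1-WT and 0 in both labelled Tet1-KO. In E14.5 females, where 6.65% of all genes were called, F11r rose. In the other 3 groups 0 of 15 passed the test, against 0.102% to 1.29% of all genes. At E10.5 Cldn7 and Spint2 were lost without Tet1-WT replicate 2 or Tet1-KO replicate 1, and Cldn6 without Tet1-WT replicate 1. All 3 were also lost in 2 of 5 other settings. In E14.5 females F11r was lost without Tet1-WT replicate 1 or Tet1-KO library b.

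Of 14 epithelial transcription and splicing factors, 6 rose on average and none fell, with a median of 0.64, against 13.9% of all genes called. Esrp1, which sets epithelial splicing, was at 31.2 and 24.8 CPM in the E10.5 libraries labelled Tet1-WT and at 107 and 109 in those labelled Tet1-KO, and rose by 0.77 on average (SE 0.08, adjusted p = 5.85e-05). Tfap2c, an AP-2 factor needed by germ cells, rose by 1.35 (SE 0.18, adjusted p = 0.000216), and Grhl3, a grainyhead factor, by 1.20 (SE 0.19, adjusted p = 0.000713). Tfap2c stands in the germ cell marker list as well. The count was 4 of 14 at E10.5, against 8.81% of all genes, and 4 of 14 in E14.5 females, against 6.65%. It was 0 in the other 3 groups, against 0.102% to 1.29%.

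Among 13 adherens junction genes, the average effect was 2 up (Cdh3 and Nectin2) and 2 down (Cdh11 and Ctnnb1). The list median was -0.05, and 13.9% of all genes were called in that average. The Cdh3 call was lost in 12 of the 20 fits without 1 library. Cdh11, a cadherin of mesenchyme, fell by 1.79 (SE 0.23, adjusted p = 0.000222). In E12.5 females it was at 37.5 and 29.0 CPM in Tet1-WT and at 3.15 and 2.68 in Tet1-KO, alongside the mesenchyme markers given above. The Nectin2 rise was 0.63 (SE 0.13, adjusted p = 0.0066).

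Of 8 repressors of Cdh1 in the list, 7 could be tested. On average Snai2 and Twist2 fell and none rose, against 13.9% of all genes called, with a list median of -1.34. Twist2 was lost in 9 of the 20 fits without 1 library. Both are genes of mesenchyme, and 11 of 15 mesenchyme markers were called lower in the same average. Snai2 fell by 1.69 (SE 0.42, adjusted p = 0.0157), and was lost without E14.5 female Tet1-WT replicate 1 or E14.5 male Tet1-WT replicate 2. In E14.5 females 2 of the 7 rose in Tet1-KO, Snai1 and Tcf4, in the comparison where Cdh1 rose and 6.65% of all genes were called. Snai1 was near the floor, at 0 and 0.106 CPM in Tet1-WT and at 0.462 and 1.8 in Tet1-KO. Tcf4 was at 5.08 and 11.7 CPM in Tet1-WT and at 14.8 and 23.0 in Tet1-KO (log2 ratio 1.21, SE 0.31, adjusted p = 0.0294), and both calls were lost without Tet1-WT replicate 1 or Tet1-KO library b.

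Of 11 tested desmosome and plakin genes, which anchor keratin filaments, Dsg2, Perp and Pkp4 rose and Evpl and Plec fell on average. The list median was 0.21, and 13.9% of all genes were called in that average. Dsg2 was lost in 13 of the 20 fits without 1 library. Perp, a desmosomal membrane protein, rose by 1.67 (SE 0.35, adjusted p = 0.00611), and Plec, which links intermediate filaments to junctions, fell by 0.71 (SE 0.17, adjusted p = 0.0142). Of 11 tested intermediate filament genes other than keratins, Ina rose and Lmna, Nefl and Nefm fell, against the same 13.9%, with a median of -0.05. Lmna, which encodes A-type lamins, fell by 1.54 (SE 0.33, adjusted p = 0.00622). Of 16 other keratins, 8 could be tested and edgeR called 0, on average and in each of the 5 groups, with a median of -0.90 on average. The share of all genes called was 13.9% on average and 0.102% to 8.81% in the groups.

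**Figure D5:**
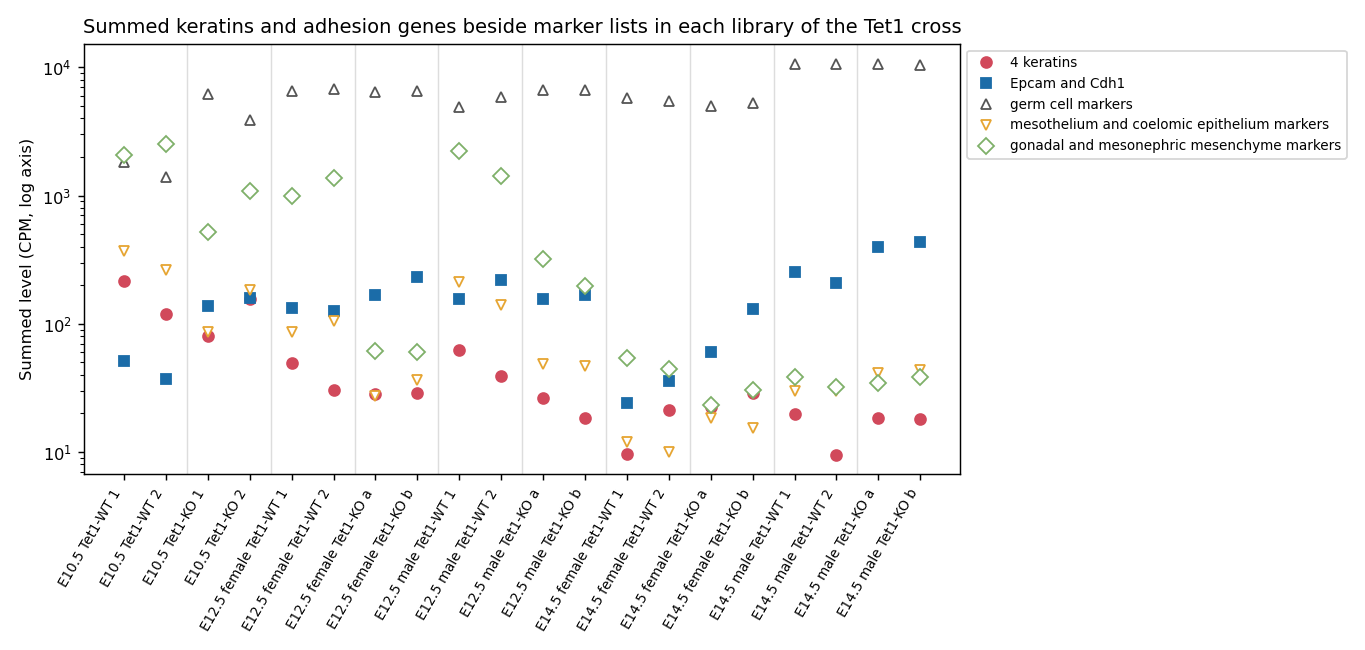
Summed CPM on a log axis in each of the 20 libraries of the Tet1 cross, for the 4 keratins, for Epcam with Cdh1, and for the germ cell, mesothelium and mesenchyme marker lists. Keratins, mesothelium and mesenchyme markers are high at E10.5 and fall by E14.5, while germ cell markers are lowest in the 2 E10.5 libraries labelled Tet1-WT (1820 and 1390 CPM).

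Summed over the 4 keratins, the level was 217 and 119 CPM in the E10.5 libraries labelled Tet1-WT, 79.9 and 155 CPM in those labelled Tet1-KO and between 18.3 and 62.5 CPM at E12.5. At E14.5 the 8 libraries ran from 9.55 to 29.1 CPM. Epcam with Cdh1 summed to 51.7 and 37.0 CPM in the E10.5 libraries labelled Tet1-WT, and to 400 and 433 CPM in E14.5 male Tet1-KO. The keratin sum exceeded the adhesion sum only in the 2 E10.5 libraries labelled Tet1-WT, where the mesothelium marker sum was also the highest of the 20 libraries.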

How the data were processed

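RNA-seq of sorted mouse PGCs was measured in 22 libraries, and all values start from raw counts per gene that the authors deposited. Per the submitters' processing notes, the tools were Trimmomatic, TopHat2 2.0.2, Bowtie 0.12.8 and HTSeq 0.5.3p9 with the mm9 build. The strand setting, annotation release and treatment of multi-mapping reads are not given in the sources used here. Gene names came from Ensembl IDs (32919 and 32897 genes with a symbol), and 1 of 179 list genes, Muc16, had no match. Lengths are of GENCODE M21 (GRCm38) principal transcripts, and promoter sequences are from RefSeq (GRCm38.p6), with no coordinate moved between builds.

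Counts of the 20 Tet1-cross libraries were fitted together by group (edgeR 4.0.16, TMM, quasi-likelihood test, R 4.3.3) after a filter (minimum count 10, total 15). The MF1 libraries were fitted with the 2 E10.5 Tet1-WT libraries in a separate fit. The method was tested on simulated data. Alternatives were DESeq2 1.42.0, RLE scaling, no filter, a replicate block and each library left out. The tests between stages and the fit of 12 numbered libraries were added after seeing the data. The 8 Tet1-KO columns of E12.5 and E14.5 share a header within each group of 2 and carry no number, so they are called libraries a and b.

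The members, lists and rules were chosen with earlier results of these data known. Named were the members and Tet1, up to 3 called genes of smallest p from each of 7 lists per comparison (otherwise up to 2 of highest mean CPM), and the 4 genes most like each member. A list gene that the rule or a count would name is not reported here.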

Additional observations from a re-analysis of the deposited data

Results flagged for a closer look

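The change from E12.5 to E14.5 differed between the sexes for 3 of the 6 genes by a test of the difference itself (edgeR's quasi-likelihood test, male minus female, log2 scale). In Tet1-WT these were 2 of 6 genes, against 12.1% of all genes, and in Tet1-KO 2 of 6, against 5.09%. In Tet1-WT, Epcam differed by 2.04 (adjusted p = 0.00296): it fell by 1.76 in females, and the male libraries overlapped between the stages. Cdh1 differed by 2.91 in Tet1-WT (adjusted p = 0.0121) and by 3.08 in Tet1-KO (adjusted p = 0.0164), so the sexes separated in both genotypes. Krt8 differed by 4.94 in Tet1-KO (adjusted p = 0.0186), on 4 counts in the E14.5 female libraries. Of the 8 fits without 1 library, the Cdh1 call was lost in 2 in Tet1-WT and in 4 in Tet1-KO, the Krt8 call in 4 and the Epcam call in 0. Groups of 2 libraries were too small for a search for outlying samples.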

How the results depend on the processing

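Each group held 2 libraries, and Krt8 at E14.5 in females and Krt19 at E14.5 in males rested on few counts, so a missed threshold does not show that levels were alike. Of 33 called values, all 33 stayed called with DESeq2, with RLE scaling and with no filter on low counts. Of 180 fits of a called value without 1 library, 119 kept the call and 61 lost it, with the direction kept in all.

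With no filter the number of members called went from 0 to 2 between genotypes in E12.5 females, and from 0 to 1 in E12.5 males and in E14.5 males. It went from 3 to 5 for Tet1-WT E12.5 females against E10.5, from 2 to 4 for the same in Tet1-KO, from 1 to 2 for E14.5 against E12.5 in Tet1-WT males and in Tet1-KO females, and from 0 to 1 for the sexes in E12.5 Tet1-WT. For the genotype effect it went from 0 to 1 between the sexes at E12.5 and to 2 at E14.5, and from 0 to 1, 2, 1 and 2 in the 4 added tests between stages. MF1 against Tet1-WT went from 0 to 4 with no filter and to 5 with DESeq2. DESeq2 also called 2 in Tet1-WT males of E14.5 against E12.5, and 1 and 2 in the added tests of E12.5 females and males minus E10.5. The cause was not tested.

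Without 1 library, the number of members called ran from 0 to 2 between genotypes at E10.5 and in E14.5 females, and from 1 to 2 over all stages. It ran from 1 to 3 for E12.5 against E10.5 in Tet1-WT females and males, from 0 to 3 in Tet1-KO females and from 0 to 2 in Tet1-KO males. For E14.5 against E12.5 it ran from 0 to 1 in Tet1-WT males, from 1 to 2 in Tet1-KO females, and was 0 in each fit for Tet1-KO males. The sex difference in that change ran from 1 to 2 in Tet1-WT and from 0 to 2 in Tet1-KO. The sex difference in the genotype effect at E14.5 ran from 0 to 1, both added tests against E10.5 from 0 to 1, and MF1 against Tet1-WT from 0 to 5. Krt19 in Tet1-KO E12.5 females against E10.5, not called, ran from -5.68 to 1.33. Epcam over all stages, also not called, was -0.03 over E12.5 and E14.5 only.

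The deviations of same-numbered libraries correlated between -0.051 and 0.06, which does not show what else those libraries did or did not share. A replicate block in the 12 numbered libraries kept 14 of 18 calls, while the same libraries without the block kept 16. With the block the members called were 1 between genotypes at E10.5 and 0 in Tet1-WT males of E14.5 against E12.5. No paired analysis was possible because the Tet1-KO columns carry no number for genotype comparisons at E12.5 and E14.5.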

Other observations

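Krt17, a type I keratin outside the set and named by the rule for list genes, was high in E14.5 males. It was at 33.0 and 72.2 CPM in male Tet1-WT and at 23.6 and 34.7 in male Tet1-KO, while the 4 female libraries of that stage were at 0 to 0.212 CPM and the other 12 libraries of the cross reached at most 1.75 CPM. The Tet1-WT difference between the sexes passed edgeR's quasi-likelihood test (adjusted p = 0.00218) and was called without any 1 of the 4 libraries. Krt222, a keratin-like gene, was at 31.3 and 38.3 CPM in E12.5 male Tet1-WT and at 22.3 and 20.3 in male Tet1-KO, and the 4 female libraries of E12.5 ran from 1.47 to 7.40 CPM. In E14.5 Tet1-WT it was at 35.5 and 23.6 CPM in males against 0.906 and 2.44 in females. There it passed the same test (log2 ratio 4.2, adjusted p = 0.0213). That call was lost without female replicate 1 or 2 or male replicate 1, and in 2 of 5 other settings.

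In E14.5 Tet1-WT, other junction genes and an epithelial splicing factor differed between the sexes, in both directions. The junction gene F11r was at 208 and 238 CPM in males and at 22.7 and 32.1 in females (log2 ratio 3.03, adjusted p = 2.95e-06), and the splicing factor Esrp1 was at 110 and 99.7 against 19.3 and 21.8 CPM (log2 ratio 2.35, adjusted p = 4.7e-07). Several junction genes were lower in males: Cldn6 (log2 ratio -3.23), the Epcam binder Cldn7 (-2.34), Dsg2 (-4.14), Dsc2 (-8.41), Perp (-3.38), Cdh11 (-2.84) and Vezt (-1.81). Several of these were near the floor, so their ratios rest on few counts. Dsc2 was at 0 in both male libraries against 1.11 and 3.92 CPM in females, and Dsg2 at 0 and 0.24 against 2.82 and 2.12. Perp was at 0 and 0.679 CPM against 2.01 and 5.94, and Cdh11 at 0.238 and 0.16 against 1.71 and 1.06. The Dsc2 call was lost without male replicate 2 and the Perp call without female replicate 2. Cdh2, which encodes N-cadherin, was lower too, at 3.21 and 1.20 CPM in males and 30.5 and 37.7 in females (log2 ratio -3.98, adjusted p = 1.48e-05). In the same comparison 28.1% of all genes were called.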
